A study of Homo sapiens with 6 samples.

Results

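Of the 24462 gene symbols in the deposited counts, 96 were nuclear-encoded genes of the mitochondrial respiratory chain and ATP synthase, and these are described here. They were taken by symbol: every symbol that begins with ATP5, COX4 to COX8, UQCR or NDUF followed by A, B, C, S or V, together with the succinate dehydrogenase genes SDHA, SDHB, SDHC and SDHD. This took in 102 symbols, from which 3 pseudogenes and 3 antisense symbols were dropped. The rule used no expression value, but it was set with earlier results of these libraries known. Of the 96 members, 84 encode subunits: 37 of complex I, 4 of complex II, 9 of complex III, 18 of complex IV and 16 of complex V. NDUFA4 and its paralog NDUFA4L2 were counted with complex IV, to which NDUFA4 is now assigned. The other 12 were carried in by their symbols and were counted apart. They are the complex I assembly factors NDUFAF1 to NDUFAF7 and ATP5SL, the read-through genes ATP5J2-PTCD1 and NDUFC2-KCTD14, ATP5S, and COX7A2L, whose product helps join complexes into supercomplexes.

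The respiratory chain sits in the inner mitochondrial membrane, where complexes I and II pass electrons from NADH and succinate to ubiquinone, complex III passes them to cytochrome c, and complex IV to oxygen. Complexes I, III and IV pump protons, and complex V, the ATP synthase, uses the returning protons to make ATP. All of these except complex II also hold subunits encoded by the mitochondrial genome, none of which is among the members. Nuclear subunit genes are known as targets of nuclear respiratory factor 1 (NRF1), of the ETS-family complex GABP (also called nuclear respiratory factor 2) and of YY1, so ETS motifs are common in their promoters. ELK3, the gene targeted in the study, encodes another ETS-family transcription factor.

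Each of 3 groups had 2 libraries, and the labelled cell line was MDA-MB-231, derived from a human breast cancer that lacks the usual hormone receptors. In the ELK3-labelled group, cells with a stable knockdown of ELK3 by a retroviral shRNA (ELK3KD-231) had received 1 µg of a plasmid that carries ELK3 (pLenti-cMyc-DDK-ELK3) by lipofection. In the vector-labelled group, the same knockdown cells had received the plasmid without ELK3 (pLenti-cMyc-DDK). Both were labelled as taken 48 hours after transfection. The control group was MDA-MB-231 made into a line with a control retrovirus, and its labels give no plasmid and no time. All 3 groups had thus been through retroviral infection, while plasmid transfection was labelled only in the groups with the knockdown. The labels do not say whether the lines were clones, nor whether the libraries of a group were separate cultures, and p-values then cover only the spread between these libraries, which may be technical.

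Library totals ran between 4884483 and 9131214 counts, from a kit that reads transcript ends. Levels are given as CPM, the counts in a library scaled to a common total of counts, after scaling of libraries by the trimmed mean of M-values (TMM), and 0 counts in a library allow up to 3 counts, or 0.319 to 0.645 CPM (counting error only). ELK3 itself ran against the labels, with 20.4 and 22.6 CPM in the ELK3-labelled libraries, 758.9 and 697.2 CPM in the vector-labelled libraries and 128.6 and 123.9 CPM in the controls. The column headings inside the files read KD+E for the vector-labelled and KD for the ELK3-labelled libraries. The headings do not spell out the E, and read as ELK3 it would name the other group. The group names used here are therefore the labels and do not describe the ELK3 level. The name knockdown groups is likewise a label for both plasmid groups and does not mean low ELK3 in both. Against the controls ELK3 was at 2.53 ± 0.09 (log2) in the vector-labelled and at -2.54 ± 0.11 in the ELK3-labelled libraries. The labelled cell type was set against 15 genes typical of MDA-MB-231 cells, whose summed level was 1166 to 1210 CPM in the ELK3-labelled, 1088 to 1118 CPM in the vector-labelled and 6736 to 6921 CPM in the control libraries. None of the 15 was at 0 counts in a group. A list of 14 genes typical of the embryonic kidney line HEK293 summed to 1754 to 1775 CPM in the ELK3-labelled, 1294 to 1351 CPM in the vector-labelled and 285.8 to 304.1 CPM in the control libraries, where PAX2 was at 0 counts. Lists for luminal breast cells, lymphocytes and muscle summed to 39.5 to 358.6 CPM in any library. The 12 liver genes listed, ALB among them, summed to 10330 to 10840 CPM in the ELK3-labelled, 12730 to 13710 CPM in the vector-labelled and 12690 to 13100 CPM in the control libraries. Against the controls the median log2 fold change of the 15 MDA-MB-231 genes was -2.84 in the vector-labelled and -3.09 in the ELK3-labelled libraries. For the 13 tested HEK293 genes it was 2.56 and 2.82. Whether the knockdown groups and the controls hold the same cell line was not tested. A difference of line and the labelled treatments cannot be told apart in comparisons with the controls. The part of these differences in the results on the members was not tested, and in bulk RNA fewer cells of a type and less RNA per cell cannot be told apart.

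The members moved gene by gene and not as a block. A gene was called higher or lower when its p-value from edgeR's quasi-likelihood test, adjusted by Benjamini-Hochberg over all 15386 genes tested, was under 0.05. Of the 96 members, 91 passed the filter on low counts. Between vector-labelled and control libraries 37 of the 91 tested members were called higher and 32 lower, or 75.8%, beside a background of 72.3% called among all genes tested (37.0% higher and 35.3% lower). Between ELK3-labelled and vector-labelled libraries 23 were called higher and 33 lower, or 61.5%, beside a background of 59.6% (30.0% higher and 29.6% lower). Between ELK3-labelled and control libraries 31 were called higher and 35 lower, or 72.5%, beside a background of 62.6% (31.8% higher and 30.8% lower). The shares of members called were thus near those of all genes, with the widest gap between ELK3-labelled and control libraries.

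Large changes were fewer among the members than among all genes, a count not adjusted for expression level. Their log2 fold changes had a median of 0.02 between vector-labelled and control libraries, with quartiles at -0.52 and 0.53, where all genes tested had a median of 0.05 and quartiles at -0.75 and 0.96. The members' median was -0.01 without control replicate 2. Only 16.5% of the tested members were called with a change of at least 2-fold there, against 43.1% of all genes. Between ELK3-labelled and vector-labelled libraries the members' median was -0.10 (-0.02 for all genes), and 4.4% changed at least 2-fold, against 22.7% of all genes. Between ELK3-labelled and control libraries the medians were -0.02 for the members and 0.02 for all genes, and 3.3% of members changed at least 2-fold, against 28.2% of all genes. Scaling by library totals alone moved the median of all genes by 0.13 in the vector-labelled against control comparison and by 0.16 in the ELK3-labelled against control comparison, so smaller differences from the controls depend on the scaling. The comparisons share libraries pairwise and their values are given side by side, not as independent evidence.

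**Figure D1:**
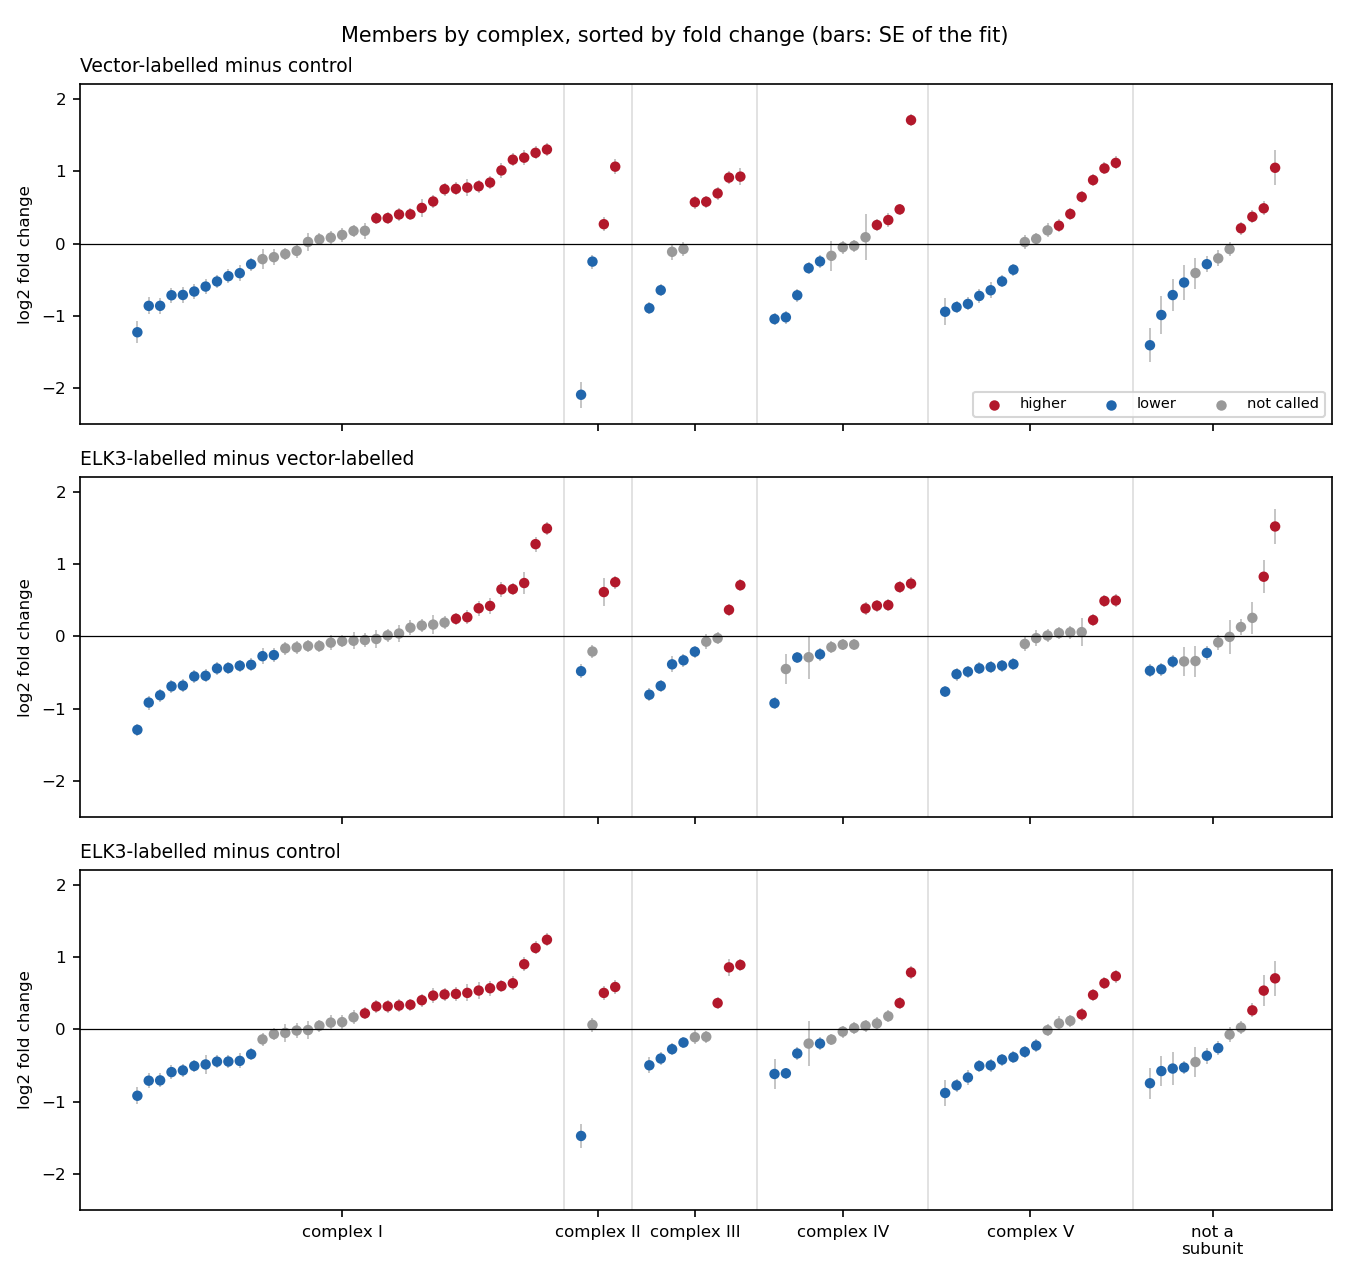
Log2 fold change of each tested member (y axis, with the SE of the fit as a bar) in the 3 comparisons, sorted within complexes along the x axis and coloured by call (red higher, blue lower, grey not called). Each complex held both higher and lower members in every comparison, with SDHD at -2.09 and COX7B at 1.71 as the extremes of the vector-labelled against control panel.

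Summed over the 96 members, the level was 16639 and 17160 CPM in the ELK3-labelled, 18714 and 18407 CPM in the vector-labelled and 16283 and 17063 CPM in the control libraries. The vector-labelled pair lay above the other 4 libraries, and the ELK3-labelled and control pairs overlapped. With library totals alone the ELK3-labelled pair, at 17555 and 17676 CPM, lay above the controls at 15303 and 15781 CPM. These sums were 1.53 to 1.91% of all counts. Complex I summed to 5460 and 5564 CPM in the ELK3-labelled, 6037 and 5929 CPM in the vector-labelled and 4720 and 4941 CPM in the control libraries, and the 3 groups did not overlap. Complex III summed to 2276 and 2414 CPM in the ELK3-labelled, 2638 and 2570 CPM in the vector-labelled and 2173 and 2343 CPM in the control libraries, with the vector-labelled pair again apart from the rest. With library totals alone the ELK3-labelled pair of complex III, at 2401 and 2486 CPM, also lay above the controls at 2043 and 2167 CPM. Complex V summed to 4467 and 4713 CPM in the ELK3-labelled, 5275 and 5316 CPM in the vector-labelled and 4912 and 5258 CPM in the control libraries. There the ELK3-labelled pair was the lowest after TMM scaling, but with library totals alone its 4713 and 4854 CPM overlapped the controls' 4616 and 4863 CPM. Complex IV lay at 3428 to 3636 CPM over all 6 libraries, and with library totals alone at 3617 and 3553 CPM in the ELK3-labelled libraries, above the controls' 3251 and 3214 CPM. Complex II summed to 403.4 and 406.1 CPM in the ELK3-labelled, 405.6 and 371.6 CPM in the vector-labelled and 342.8 and 354.4 CPM in the control libraries, where the controls were the lowest. With pairs of libraries no exact test of such a sum can pass 0.05, so the sums carry no p-value.

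**Figure D2:**
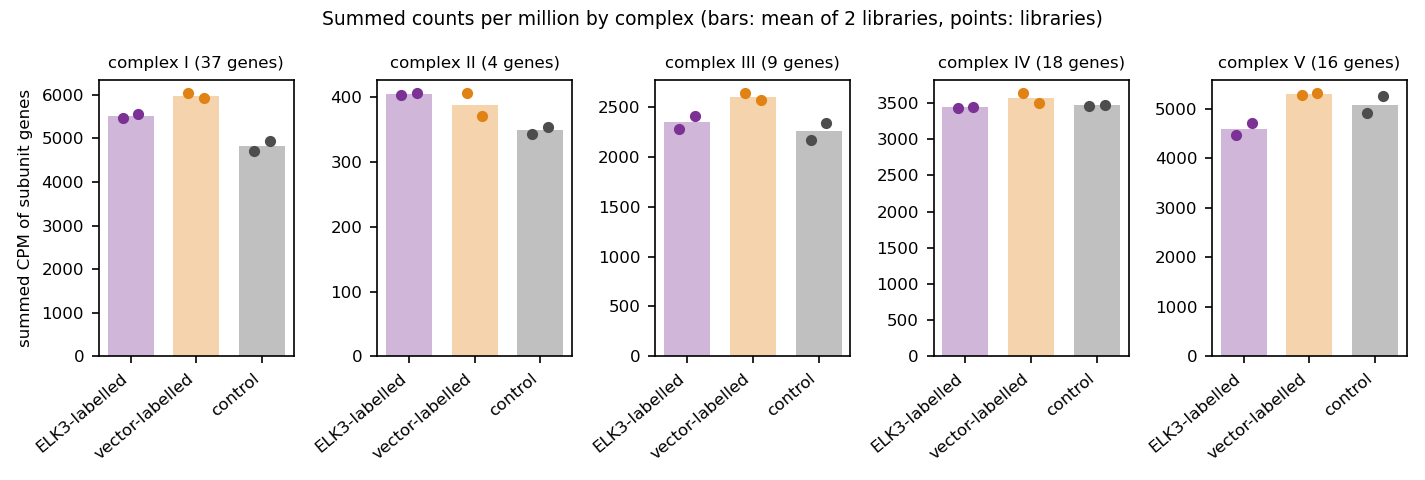
Summed CPM of the subunit genes of each complex (y axis, from 0) in the ELK3-labelled, vector-labelled and control libraries; bars are means of 2 libraries and points are the libraries. The complex I sums lie at 5460 to 5564 CPM in the ELK3-labelled, 5929 to 6037 CPM in the vector-labelled and 4720 to 4941 CPM in the control libraries.

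The members' promoters were read because ETS-family factors bind DNA at ETS motifs. A RefSeq promoter of build GRCh38.p14, running from 250 bases before to 50 bases after the first listed start site, was at hand for 77 of the 96 members. The ETS core CCGGAA, searched on both strands, was in 32 of the 77 (41.6%), against 17.6% of all 27305 promoters and 27.6% of the 11823 promoters of tested genes. The longer ETS form ACTTCCGG, which contains the core on the other strand and was also searched on both, was in 9 members (11.7%), against 4.44% of all promoters and 8.09% of those of tested genes. Its 10 copies are shown with 10 bases on each side, read 5′ to 3′ on the strand of the gene, since the calls of these 9 members are described next. Capitals mark the motif, as ACTTCCGG or its reverse complement CCGGAAGT.
ATP5H (chr17:75047054-75047081, minus strand): ccgggaagatACTTCCGGaaccagccct
COX5B (chr2:97646015-97646042, plus strand): aagcccgcccCCGGAAGTccctcctgtc
COX5B (chr2:97646047-97646074, plus strand): cagcttgttcCCGGAAGTtttgctgcta
COX8A (chr11:63974591-63974618, plus strand): cagctccagaACTTCCGGccagcgcagc
NDUFA13 (chr19:19516205-19516232, plus strand): ccgcccgggaCCGGAAGTgtgggatact
NDUFS1 (chr2:206159585-206159612, minus strand): ggctggggccACTTCCGGcggaactgcg
SDHD (chr11:112086785-112086812, plus strand): ccgcctctcgACTTCCGGttcacccagc
UQCR11 (chr19:1605562-1605589, minus strand): ccaaccctcgCCGGAAGTtactgtaagt
UQCRH (chr1:46303641-46303668, plus strand): agtgtgccgcACTTCCGGccagatcgcc
UQCRQ (chr5:132866578-132866605, plus strand): atggtatctcCCGGAAGTtacctcacga

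Splitting the calls by promoter motif was not planned, and the split by ACTTCCGG was added after the data were seen. The 9 members holding ACTTCCGG span all 5 complexes. They encode NDUFS1 and NDUFA13 of complex I, the membrane anchor SDHD of complex II, the small complex III subunits UQCRQ and UQCR11 and the hinge protein UQCRH, COX5B and COX8A of complex IV, and the stalk subunit d of the ATP synthase, ATP5H. Between ELK3-labelled and vector-labelled libraries 8 of these 9 were called higher and none lower, beside 30.0% higher among all genes tested, with a median log2 fold change of 0.61. The ninth, UQCRH, was not called (-0.02 ± 0.08, adjusted p = 0.815). Of the 64 tested members whose promoter lacks the motif, 10 were called higher and 28 lower, with a median of -0.16. Between vector-labelled and control libraries 7 of the 9 were called lower, beside 35.3% of all genes tested, with a median of -0.72. UQCRH was the exception called higher (0.91 ± 0.09), and NDUFA13 was not called (-0.19 ± 0.11, adjusted p = 0.113). Members without the motif had 27 called higher and 18 lower of 64 there, with a median of 0.06. Between ELK3-labelled and control libraries, where neither side is a vector-labelled library, 2 of the 9 were called higher and 6 lower. Among all genes tested 31.8% were higher and 30.8% lower there. Of the 64 members without the motif, 22 were called higher and 25 lower. The median was -0.23 for the 9 holders, against -0.03 for members without the motif.

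In the comparisons that use the vector-labelled libraries, the pattern was not particular to respiratory genes. Among all tested genes, 957 held ACTTCCGG, and 61.3% of them were called higher and 14.3% lower between ELK3-labelled and vector-labelled libraries (median 0.58), against 28.5% higher and 31.0% lower of 10866 genes without it (median -0.04). Between vector-labelled and control libraries, 19.3% of the holders were called higher and 58.6% lower (median -0.61), against 37.8% and 35.2% of the others (median 0.06). Between ELK3-labelled and control libraries, 29.4% of the holders were called higher and 33.1% lower, against 31.7% and 32.0% of the others. The medians there were -0.0064 for holders and -0.0048 for the others. Both comparisons with a difference among all tested genes use the vector-labelled libraries, so their opposite signs are not independent of each other. A match to these letters is a description of the sequence and does not show that a factor bound there.

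**Figure D3:**
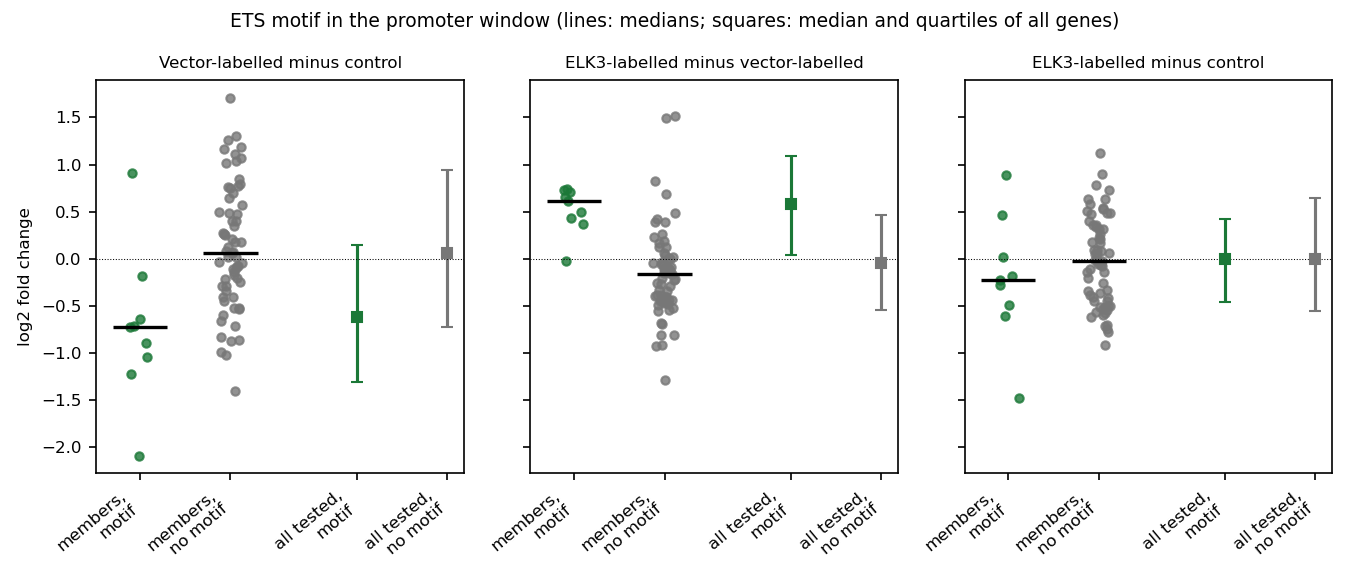
Log2 fold change (y axis) of tested members with and without ACTTCCGG in the promoter (points, with black lines at the medians) and of all tested genes with and without it (squares at the medians, bars from the lower to the upper quartile), in the 3 comparisons. Members with the motif lie at a median of -0.72 between vector-labelled and control libraries, at 0.61 between ELK3-labelled and vector-labelled libraries and at -0.23 between ELK3-labelled and control libraries.

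The shorter core was held by more members. Of 32 tested members holding CCGGAA, 14 were called higher and 5 lower between ELK3-labelled and vector-labelled libraries (median 0.15), while of 41 without it 4 were called higher and 23 lower (median -0.27). Of all 3269 tested genes holding it, 48.5% were called higher and 18.7% lower there. Between vector-labelled and control libraries 8 holders were called higher and 14 lower (median -0.21), and 20 members without it higher and 11 lower (median 0.18), beside 26.1% higher and 50.1% lower of all tested genes holding it. The palindromic NRF1 motif, searched with its middle base free at 1 position, was in 17 members (22.1%), against 6.28% of all promoters and 11.2% of those of tested genes. Of its 16 tested holders, 2 were called higher and 9 lower between ELK3-labelled and vector-labelled libraries (median -0.30), beside 24.5% higher and 39.8% lower of the 1321 tested genes that hold it. The YY1 motif AAGATGGCG was in 8 members (10.4%), against 1.85% of all promoters and 3.63% of those of tested genes, and its holders split into 3 higher and 4 lower in that comparison, beside 30.3% higher and 38.2% lower of the 429 tested genes that hold it. The promoters of 3 members are printed for the range they cover: SDHD, the member with the lowest log2 fold change against the controls in both knockdown groups, NDUFS3, the subunit with the highest one between ELK3-labelled and vector-labelled libraries, and COX7B, the member with the highest one between vector-labelled and control libraries. Capitals mark CCGGAA or its reverse complement TTCCGG, and in SDHD also the NRF1 motif.
SDHD (chr11:112086623-112086922, plus strand): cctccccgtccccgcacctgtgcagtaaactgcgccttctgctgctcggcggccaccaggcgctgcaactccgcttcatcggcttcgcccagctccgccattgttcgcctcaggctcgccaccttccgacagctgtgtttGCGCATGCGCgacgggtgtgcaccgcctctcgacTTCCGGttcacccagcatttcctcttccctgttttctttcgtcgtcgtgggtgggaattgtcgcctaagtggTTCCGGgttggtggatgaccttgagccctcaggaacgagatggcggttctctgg
NDUFS3 (chr11:47578824-47579123, plus strand): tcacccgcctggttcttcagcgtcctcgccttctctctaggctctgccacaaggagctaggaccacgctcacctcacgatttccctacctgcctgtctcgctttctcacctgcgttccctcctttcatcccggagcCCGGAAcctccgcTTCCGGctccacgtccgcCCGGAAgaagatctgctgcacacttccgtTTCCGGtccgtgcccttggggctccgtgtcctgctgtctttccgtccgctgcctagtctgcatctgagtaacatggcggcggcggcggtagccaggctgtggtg
COX7B (chrX:77899218-77899517, plus strand): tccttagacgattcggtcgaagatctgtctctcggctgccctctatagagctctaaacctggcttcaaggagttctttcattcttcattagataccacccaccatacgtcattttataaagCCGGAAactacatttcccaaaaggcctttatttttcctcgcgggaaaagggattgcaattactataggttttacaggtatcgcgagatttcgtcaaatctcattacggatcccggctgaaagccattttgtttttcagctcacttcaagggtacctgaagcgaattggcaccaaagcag

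SDHD holds 2 copies of the core and 1 NRF1 motif in this window, NDUFS3 holds 4 copies of the core and none of the longer form, and COX7B holds 1 copy of the core. COX7B was among the 5 holders of the core called lower between ELK3-labelled and vector-labelled libraries.

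Complex I takes electrons from NADH through its core subunits and is built out with many accessory subunits. Of its 37 members, all of which were tested, 16 were called higher and 11 lower between vector-labelled and control libraries, 9 higher and 13 lower between ELK3-labelled and vector-labelled libraries, and 17 higher and 11 lower between ELK3-labelled and control libraries. In these comparisons 73.0%, 59.5% and 75.7% were called, beside 72.3%, 59.6% and 62.6% of all genes tested. The 7 core subunits and the 30 accessory subunits differed in the first of these, where 2 core genes were called higher and 4 lower (median -0.45) and 14 accessory genes higher and 7 lower (median 0.18). This difference between the classes was not tested.

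Among the core genes, NDUFS1, the large iron-sulfur subunit of the NADH-oxidizing arm, had 27.5 and 31.3 CPM in the ELK3-labelled, 17.5 and 18.01 CPM in the vector-labelled and 42.2 and 40.6 CPM in the control libraries. Its 3 groups did not overlap, and the vector-labelled pair was the lowest. The log2 fold changes were -1.23 ± 0.15 between vector-labelled and control libraries (adjusted p = 7.31e-09) and 0.74 ± 0.15 between ELK3-labelled and vector-labelled libraries (adjusted p = 6.28e-05). NDUFS3, of the module that hands electrons to ubiquinone, had 240.9 and 255.9 CPM in the ELK3-labelled, 92.0 and 84.4 CPM in the vector-labelled and 120.5 and 146.4 CPM in the control libraries. The ELK3-labelled pair was the highest and the vector-labelled pair the lowest, with no overlap. The step between those groups was 1.49 ± 0.10 in log2 (adjusted p = 5.01e-15).

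NDUFV1, NDUFS8, NDUFV2 and NDUFS7, also core genes, were ordered differently. NDUFV1, which holds the NADH and flavin site, had 133.3 and 138.7 CPM in the ELK3-labelled, 168.1 and 190.1 CPM in the vector-labelled and 105.0 and 101.3 CPM in the control libraries. NDUFS8, an iron-sulfur subunit, had 100 and 106.1 CPM in the ELK3-labelled, 151.0 and 150.1 CPM in the vector-labelled and 114.8 and 112.9 CPM in the control libraries. In both the vector-labelled pair was the highest, and the log2 fold changes between ELK3-labelled and vector-labelled libraries were -0.39 ± 0.09 (adjusted p = 0.000256) and -0.54 ± 0.09 (adjusted p = 2.58e-06). NDUFV2, another iron-sulfur subunit, had 77.4 and 75.6 CPM in the ELK3-labelled, 86.2 and 97.3 CPM in the vector-labelled and 124.6 and 125.2 CPM in the control libraries, so that both knockdown groups were below the controls. It was called lower in the ELK3-labelled than in the vector-labelled libraries (-0.26 ± 0.10, adjusted p = 0.0206), but not without vector-labelled replicate 2 (adjusted p = 0.260), ELK3-labelled replicate 1 (adjusted p = 0.0629) or ELK3-labelled replicate 2 (adjusted p = 0.124). NDUFS7, which carries the last iron-sulfur cluster before ubiquinone, had 52.6 and 44.1 CPM in the ELK3-labelled, 44.2 and 55.0 CPM in the vector-labelled and 51.7 and 45.2 CPM in the control libraries. Its groups overlapped, it was called in no comparison, and its largest log2 fold change in size was -0.04 ± 0.12.

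The highest log2 fold changes of complex I between vector-labelled and control libraries were those of accessory subunits. NDUFA6 had 188.3 and 211.4 CPM in the ELK3-labelled, 365.6 and 337.8 CPM in the vector-labelled and 133.0 and 152.7 CPM in the control libraries. NDUFA3 had 164.9 and 137.4 CPM in the ELK3-labelled, 212.0 and 230.5 CPM in the vector-labelled and 103.5 and 90.3 CPM in the control libraries. Both were highest in the vector-labelled and lowest in the control libraries with no overlap, by log2 fold changes of 1.30 ± 0.09 and 1.19 ± 0.10 between them (adjusted p = 1.84e-14 and 1.22e-12). NDUFA5, a subunit beside the ubiquinone module, had 88.4 and 108.4 CPM in the ELK3-labelled, 194.8 and 177.9 CPM in the vector-labelled and 85.7 and 99.4 CPM in the control libraries, so it was high in the vector-labelled pair alone. NDUFV3, an accessory subunit of the NADH-oxidizing arm, had 120.9 and 119.3 CPM in the ELK3-labelled, 300.3 and 287.1 CPM in the vector-labelled and 166.7 and 160.6 CPM in the control libraries. It had the lowest log2 fold change of all members between ELK3-labelled and vector-labelled libraries, at -1.29 ± 0.08 (adjusted p = 9.89e-15).

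Some membrane-arm subunits were called between each knockdown group and the controls but not between the knockdown groups. NDUFB10 had 211.0 and 212.4 CPM in the ELK3-labelled, 238.9 and 225.1 CPM in the vector-labelled and 94.5 and 99.99 CPM in the control libraries. NDUFB6 had 46.1 and 42.5 CPM in the ELK3-labelled, 50.7 and 40.6 CPM in the vector-labelled and 77.2 and 90.1 CPM in the control libraries. NDUFB10 was thus higher and NDUFB6 lower in both knockdown groups, by 1.12 ± 0.09 and -0.92 ± 0.12 (log2) between ELK3-labelled and control libraries, and neither was called between the knockdown groups (adjusted p = 0.167 and 0.687), though both ELK3-labelled values of NDUFB10 lay below both vector-labelled ones. NDUFB9 was ordered differently again, with 289.6 and 317.7 CPM in the ELK3-labelled, 186.0 and 200.9 CPM in the vector-labelled and 122.1 and 135.9 CPM in the control libraries. It was called higher in each comparison and reached 1.24 ± 0.09 (log2) between ELK3-labelled and control libraries (adjusted p = 6.59e-14). Subunits of the same arm therefore took each of these orders.

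NDUFA8, which binds on the intermembrane side, had 215.3 and 187.3 CPM in the ELK3-labelled, 325.8 and 317.8 CPM in the vector-labelled and 143.5 and 144.5 CPM in the control libraries, in the order of NDUFA6. NDUFB5 had 67.3 and 66.3 CPM in the ELK3-labelled, 53.3 and 45.8 CPM in the vector-labelled and 84.1 and 97.0 CPM in the control libraries, in the order of NDUFS1. NDUFA12, an accessory subunit whose paralog NDUFAF2 acts in assembly, had 66.5 and 67.7 CPM in the ELK3-labelled, 73.5 and 65.0 CPM in the vector-labelled and 103.9 and 116.1 CPM in the control libraries, with both knockdown groups below the controls. Lower in both knockdown groups were also NDUFB1 and NDUFB3, at -0.51 and -0.59 (log2) between ELK3-labelled and control libraries. NDUFB2 was lower in the ELK3-labelled than in the control libraries (-0.45 ± 0.09, adjusted p = 6.98e-05), and its call in the vector-labelled libraries (adjusted p = 0.00659) was lost without control replicate 2 (adjusted p = 0.0786). Higher in both were NDUFA1, NDUFB11, NDUFC1, NDUFC2 and NDUFS6, between 0.31 for NDUFC1 and 0.60 for NDUFC2 (log2) in the ELK3-labelled libraries against the controls. NDUFA2 and NDUFA9 were higher in the vector-labelled than in the control libraries, at 0.35 ± 0.09 and 0.77 ± 0.12 (log2, adjusted p = 0.000436 and 6.12e-07). Their calls in the ELK3-labelled libraries against the controls (adjusted p = 0.0246 and 0.000419) were lost without ELK3-labelled replicate 2 (adjusted p = 0.147 and 0.0632), and that of NDUFA2 also without ELK3-labelled replicate 1 (adjusted p = 0.0518) or control replicate 1 (adjusted p = 0.143). NDUFS5 was called higher in the ELK3-labelled than in the control libraries alone (0.33 ± 0.09, adjusted p = 0.00142), and not without control replicate 1 (adjusted p = 0.0593). NDUFA11 and NDUFB8 were lower in the ELK3-labelled libraries than in the vector-labelled and the control libraries, at -0.69 and -0.41 (log2) against the vector-labelled ones. NDUFS4, mutated in a form of Leigh syndrome, was lower in the vector-labelled than in the control libraries (-0.41 ± 0.11, adjusted p = 0.000996) and higher in the ELK3-labelled than in the vector-labelled libraries (0.39 ± 0.10, adjusted p = 0.00145). NDUFA7 was called only between ELK3-labelled and vector-labelled libraries (0.26 ± 0.10, adjusted p = 0.0172), and not without vector-labelled replicate 1 (adjusted p = 0.111) or ELK3-labelled replicate 1 (adjusted p = 0.152). NDUFA10, NDUFAB1, NDUFB4 and NDUFB7 were called in no comparison, with log2 fold changes between -0.21 and 0.19.

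**Figure D4:**
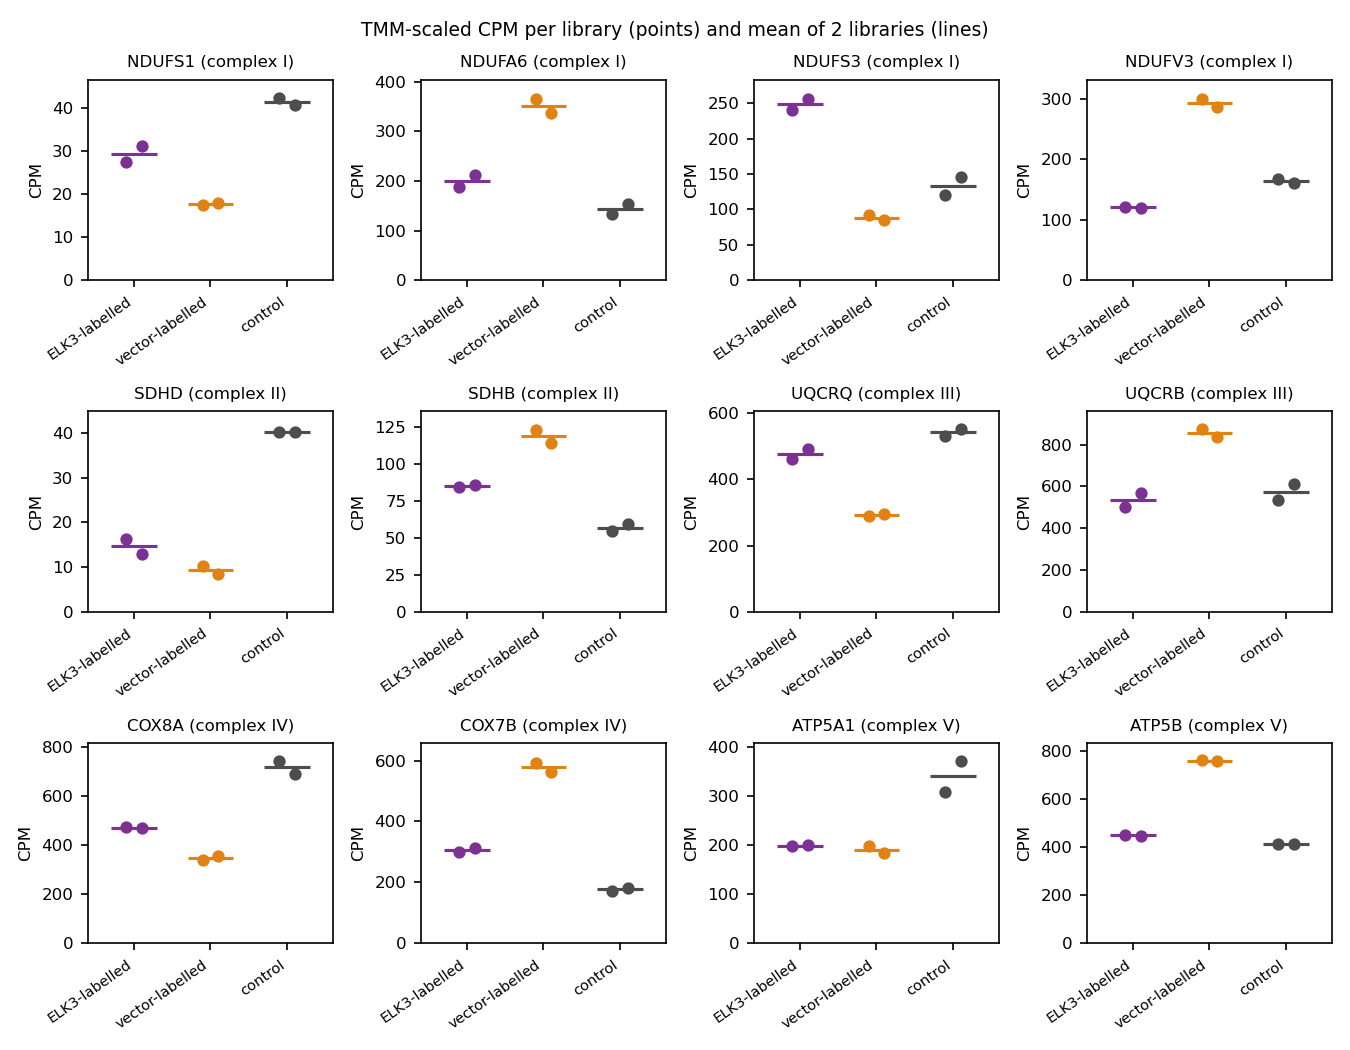
TMM-scaled CPM (y axis, from 0) of 12 members of the 5 complexes in the ELK3-labelled, vector-labelled and control libraries; points are libraries and lines the mean of 2. NDUFS3 lies at 240.9 and 255.9 CPM in the ELK3-labelled, 92.0 and 84.4 CPM in the vector-labelled and 120.5 and 146.4 CPM in the control libraries, and within complexes II to V one member shown is lowest and the other highest in the vector-labelled pair, except ATP5A1, whose knockdown groups nearly coincide.

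Complex II, succinate dehydrogenase, has 4 subunits and no mitochondrially encoded one, and its genes went apart. SDHD, an anchor in the membrane, had 16.4 and 12.97 CPM in the ELK3-labelled, 10.3 and 8.40 CPM in the vector-labelled and 40.4 and 40.2 CPM in the control libraries. SDHB, the iron-sulfur subunit, had 84.4 and 85.8 CPM in the ELK3-labelled, 123.1 and 114.3 CPM in the vector-labelled and 54.4 and 59.4 CPM in the control libraries. The vector-labelled pair was thus the lowest for SDHD and the highest for SDHB, with no overlap in either. Between vector-labelled and control libraries the log2 fold changes were -2.09 ± 0.18 for SDHD (adjusted p = 2.15e-12) and 1.06 ± 0.10 for SDHB (adjusted p = 3.22e-11). Against the controls the ELK3-labelled libraries gave -1.48 ± 0.16 (adjusted p = 9.14e-10) and 0.58 ± 0.10 (adjusted p = 8.71e-06).

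SDHD was called higher in the ELK3-labelled than in the vector-labelled libraries (0.61 ± 0.19, adjusted p = 0.00723), but not without vector-labelled replicate 2 (adjusted p = 0.0663) or ELK3-labelled replicate 1 (adjusted p = 0.0835). SDHC, the other anchor, had 172.4 and 155.0 CPM in the ELK3-labelled, 99.6 and 94.5 CPM in the vector-labelled and 120.2 and 110.5 CPM in the control libraries. The ELK3-labelled pair was the highest, by 0.75 ± 0.09 (log2) over the vector-labelled pair (adjusted p = 1.54e-08). SDHA, the flavoprotein that oxidizes succinate, had 130.2 and 152.4 CPM in the ELK3-labelled, 172.6 and 154.5 CPM in the vector-labelled and 127.8 and 144.3 CPM in the control libraries. The vector-labelled libraries were the highest, but the change from the controls (0.27 ± 0.10, adjusted p = 0.0134) was lost without control replicate 1 (adjusted p = 0.182) or vector-labelled replicate 1 (adjusted p = 0.188). SDHC against the controls (-0.25 ± 0.10, adjusted p = 0.0215) was likewise lost without control replicate 1 (adjusted p = 0.128) or vector-labelled replicate 2 (adjusted p = 0.0930).

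Complex III passes electrons from ubiquinol to cytochrome c. Of its 9 members, all tested, 5 were called higher and 2 lower between vector-labelled and control libraries (median 0.57), 2 higher and 5 lower between ELK3-labelled and vector-labelled libraries (median -0.21), and 3 higher and 4 lower between ELK3-labelled and control libraries (median -0.11). The share called was 77.8% each time, beside 72.3%, 59.6% and 62.6% of all genes tested. UQCRQ, a small membrane subunit, had 461.6 and 492.7 CPM in the ELK3-labelled, 289.2 and 295.4 CPM in the vector-labelled and 532.4 and 552.9 CPM in the control libraries. UQCRB, which lies by the ubiquinone site, had 499.1 and 567.7 CPM in the ELK3-labelled, 877.6 and 838.0 CPM in the vector-labelled and 535.4 and 613.1 CPM in the control libraries. They went opposite ways in the vector-labelled pair, with log2 fold changes against the controls of -0.89 ± 0.08 for UQCRQ (adjusted p = 1e-11) and 0.58 ± 0.09 for UQCRB (adjusted p = 2.7e-07). UQCR10 followed UQCRB, with 129.0 and 130.9 CPM in the ELK3-labelled, 235.3 and 218.7 CPM in the vector-labelled and 126.7 and 154.2 CPM in the control libraries. UQCR11 followed UQCRQ, with 278.3 and 269.1 CPM in the ELK3-labelled, 208.6 and 215.9 CPM in the vector-labelled and 340.7 and 322.1 CPM in the control libraries.

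Among the redox and core subunits, UQCRFS1, the Rieske iron-sulfur protein, had 96.7 and 99.7 CPM in the ELK3-labelled, 119.7 and 127.9 CPM in the vector-labelled and 126.7 and 133.8 CPM in the control libraries. The ELK3-labelled pair was the lowest, by -0.33 ± 0.09 (log2) against the vector-labelled libraries (adjusted p = 0.00206), and the other groups overlapped. UQCRC1, a core protein, had 50.3 and 60.6 CPM in the ELK3-labelled, 69.9 and 76.4 CPM in the vector-labelled and 84.1 and 73.8 CPM in the control libraries. It was called lower in the ELK3-labelled than in the vector-labelled libraries (-0.39 ± 0.11, adjusted p = 0.00271), but not without ELK3-labelled replicate 1 (adjusted p = 0.0884). UQCRC2, its partner core protein, had 160.4 and 163.7 CPM in the ELK3-labelled, 195.5 and 179.5 CPM in the vector-labelled and 126.3 and 126.2 CPM in the control libraries. It was higher in both knockdown groups, by 0.57 ± 0.09 in the vector-labelled and 0.36 ± 0.09 in the ELK3-labelled libraries (log2, adjusted p = 7.63e-07 and 0.000648). The hinge protein gene UQCRH had 479.8 and 501.5 CPM in the ELK3-labelled, 506.5 and 491.9 CPM in the vector-labelled and 244.3 and 286.2 CPM in the control libraries. Its near-identical copy UQCRHL had 120.9 and 127.6 CPM in the ELK3-labelled, 135.3 and 125.9 CPM in the vector-labelled and 56.7 and 81.1 CPM in the control libraries. Both were above the controls in both knockdown groups, but reads of such copies can be split between them, so their separate values are uncertain.

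Complex IV, cytochrome c oxidase, had the fewest tested members for its size, 13 of 18. Of these, 4 were called higher and 5 lower between vector-labelled and control libraries, 5 higher and 3 lower between ELK3-labelled and vector-labelled libraries, and 2 higher and 4 lower between ELK3-labelled and control libraries. That is 69.2%, 61.5% and 46.15% called, beside 72.3%, 59.6% and 62.6% of all genes tested. COX7B, a small subunit, had 298.0 and 311.6 CPM in the ELK3-labelled, 593.9 and 562.7 CPM in the vector-labelled and 171.9 and 182.3 CPM in the control libraries. The groups did not overlap, and the log2 fold changes were 1.71 ± 0.09 between vector-labelled and control libraries (adjusted p = 1.7e-18) and -0.92 ± 0.08 between ELK3-labelled and vector-labelled libraries (adjusted p = 1.04e-11). COX8A, a small membrane subunit, had 471.6 and 467.4 CPM in the ELK3-labelled, 339.9 and 356.2 CPM in the vector-labelled and 742.0 and 691.1 CPM in the control libraries. COX6B1, which joins the monomers of the enzyme, had 168.7 and 173.2 CPM in the ELK3-labelled, 104.2 and 109.3 CPM in the vector-labelled and 221.0 and 210.7 CPM in the control libraries. In both the vector-labelled pair was the lowest with no overlap, by -1.04 ± 0.08 and -1.02 ± 0.09 (log2) against the controls (adjusted p = 1.88e-13 and 3.17e-12). COX5B, which binds zinc and holds ACTTCCGG in 2 copies, had 190.3 and 174.0 CPM in the ELK3-labelled, 106.5 and 113.3 CPM in the vector-labelled and 187.4 and 172.5 CPM in the control libraries, so the ELK3-labelled and control pairs overlapped above the vector-labelled pair. COX7C, a small membrane subunit, had 636.4 and 667.6 CPM in the ELK3-labelled, 734.6 and 675.7 CPM in the vector-labelled and 499.0 and 517.2 CPM in the control libraries, with both knockdown groups above the controls. COX6C had 337.7 and 344.2 CPM in the ELK3-labelled, 441.9 and 366.4 CPM in the vector-labelled and 293.6 and 352.2 CPM in the control libraries. It was called higher in the vector-labelled than in the control libraries (0.33 ± 0.09, adjusted p = 0.00223), but not without control replicate 1 (adjusted p = 0.0896) or vector-labelled replicate 1 (adjusted p = 0.160).

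COX4I1, a regulatory subunit, had 329.2 and 344.0 CPM in the ELK3-labelled, 361.5 and 367.4 CPM in the vector-labelled and 362.4 and 381.7 CPM in the control libraries. It was called in no comparison, and its largest log2 fold change in size was -0.14 ± 0.08 between ELK3-labelled and control libraries (adjusted p = 0.121). Several complex IV subunits have a second isoform for certain tissues. The lung and low-oxygen isoform COX4I2 and the heart and muscle isoform COX6A2 were at 0 counts in all 6 libraries. The testis isoform COX6B2 had 2 and 4 counts in the ELK3-labelled, 12 and 10 counts in the vector-labelled and 1 and 0 counts in the control libraries. Its fellow testis isoform COX8C had 1 and 1 counts in the ELK3-labelled, 6 and 8 counts in the vector-labelled and 0 and 0 counts in the control libraries. COX7B2 had 1 count in control replicate 2 and 0 counts in the other libraries. These 5 were below the filter and were not tested.

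Among the tested isoforms, the muscle isoform COX7A1 had 4.61 and 4.78 CPM in the ELK3-labelled, 5.88 and 5.603 CPM in the vector-labelled and 4.18 and 6.67 CPM in the control libraries, and was called in no comparison. COX6A1, the widely expressed form of subunit 6A, had 203.9 and 204.0 CPM in the ELK3-labelled, 158.1 and 153.9 CPM in the vector-labelled and 195.1 and 199.6 CPM in the control libraries, with the vector-labelled pair the lowest. COX7A2, the widely expressed form of subunit 7A, had 310.1 and 299.1 CPM in the ELK3-labelled, 224.3 and 229.5 CPM in the vector-labelled and 263.1 and 275.0 CPM in the control libraries. The vector-labelled pair was the lowest, by 0.42 ± 0.08 (log2) between ELK3-labelled and vector-labelled libraries (adjusted p = 3.94e-05). NDUFA4 had 315.5 and 306.4 CPM in the ELK3-labelled, 380.5 and 380.6 CPM in the vector-labelled and 334.4 and 302.1 CPM in the control libraries, with the vector-labelled pair the highest. NDUFA4L2, the paralog of NDUFA4 that is known to rise in low oxygen, had 8.91 and 11.7 CPM in the ELK3-labelled, 12.8 and 16.2 CPM in the vector-labelled and 17.8 and 14.4 CPM in the control libraries. It was called lower in the ELK3-labelled than in the control libraries (-0.62 ± 0.21, adjusted p = 0.00973), but not without control replicate 1 (adjusted p = 0.116) or ELK3-labelled replicate 1 (adjusted p = 0.0951).

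Complex V makes ATP in its F1 head, which a stalk couples to the membrane part with its ring of subunit c. Of its 16 members, all tested, 6 were called higher and 7 lower between vector-labelled and control libraries, 3 higher and 7 lower between ELK3-labelled and vector-labelled libraries, and 4 higher and 9 lower between ELK3-labelled and control libraries. That is 81.25%, 62.5% and 81.25% called, beside 72.3%, 59.6% and 62.6% of all genes tested. ATP5A1 and ATP5B encode the alpha and beta subunits that alternate in the head. ATP5A1 had 198.3 and 199.7 CPM in the ELK3-labelled, 198.2 and 184.1 CPM in the vector-labelled and 309.3 and 372.9 CPM in the control libraries. ATP5B had 450.6 and 443.5 CPM in the ELK3-labelled, 759.6 and 757.4 CPM in the vector-labelled and 413.2 and 411.8 CPM in the control libraries. Alpha was thus lower in both knockdown groups, while beta was high in the vector-labelled pair. The log2 fold changes between vector-labelled and control libraries were -0.83 ± 0.09 for ATP5A1 (adjusted p = 5.77e-10) and 0.88 ± 0.08 for ATP5B (adjusted p = 7.09e-12). Against the controls the ELK3-labelled libraries gave -0.78 ± 0.09 (adjusted p = 3.25e-09) and 0.12 ± 0.08 (adjusted p = 0.204).

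Of the other head subunits, ATP5D (delta) had 14.6 and 11.8 CPM in the ELK3-labelled, 12.9 and 12.01 CPM in the vector-labelled and 25.7 and 22.4 CPM in the control libraries. ATP5E (epsilon) had 242.3 and 236.5 CPM in the ELK3-labelled, 171.6 and 169.3 CPM in the vector-labelled and 321.0 and 305.4 CPM in the control libraries. Both were lower in the vector-labelled than in the control libraries, by -0.94 ± 0.19 and -0.88 ± 0.08 (log2, adjusted p = 3.46e-05 and 3.61e-11). ATP5C1 (gamma) had 88.7 and 94.3 CPM in the ELK3-labelled, 129.9 and 133.7 CPM in the vector-labelled and 128.2 and 131.2 CPM in the control libraries, and was lower in the ELK3-labelled pair alone. The stalk subunit ATP5O, known as OSCP, had 319.6 and 341.7 CPM in the ELK3-labelled, 424.4 and 439.0 CPM in the vector-labelled and 182.6 and 215.7 CPM in the control libraries, with the vector-labelled pair the highest and the controls the lowest. The genes ATP5G1, ATP5G2 and ATP5G3 encode the same mature subunit c and moved apart. ATP5G1 had 248.9 and 250.6 CPM in the ELK3-labelled, 342.1 and 358.6 CPM in the vector-labelled and 349.0 and 319.8 CPM in the control libraries. ATP5G2 had 447.9 and 500.1 CPM in the ELK3-labelled, 609.9 and 646.3 CPM in the vector-labelled and 302.2 and 308.6 CPM in the control libraries. ATP5G3 had 599.3 and 579.2 CPM in the ELK3-labelled, 597.0 and 543.1 CPM in the vector-labelled and 702.9 and 761.7 CPM in the control libraries. Only ATP5G2 was above the controls in both knockdown groups, by 1.04 ± 0.08 in the vector-labelled and 0.64 ± 0.08 in the ELK3-labelled libraries (log2, adjusted p = 4.32e-13 and 4.55e-08).

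Of the smaller membrane and stalk subunits, ATP5H and ATP5F1 (subunits d and b of the stalk) went apart, with ATP5H at -0.72 ± 0.09 and ATP5F1 at 0.65 ± 0.09 (log2) between vector-labelled and control libraries (adjusted p = 3.74e-08 and 3.57e-08). ATP5J, a coupling factor of the stalk, was higher in the ELK3-labelled than in the control libraries (0.47 ± 0.09, adjusted p = 1.36e-05), and ATP5I (subunit e) was called in no comparison. ATP5L (subunit g) had 865.2 and 988.2 CPM in the ELK3-labelled, 909.9 and 928.9 CPM in the vector-labelled and 1228 and 1411 CPM in the control libraries. ATP5L2, its copy, had 42.0 and 46.5 CPM in the ELK3-labelled, 43.0 and 47.6 CPM in the vector-labelled and 71.7 and 69.5 CPM in the control libraries. Both were lower in both knockdown groups, but the copies are similar in sequence, and ATP5J2 (subunit f) lies within the read-through gene ATP5J2-PTCD1, so counts may be split between such pairs and are uncertain.

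**Figure D5:**
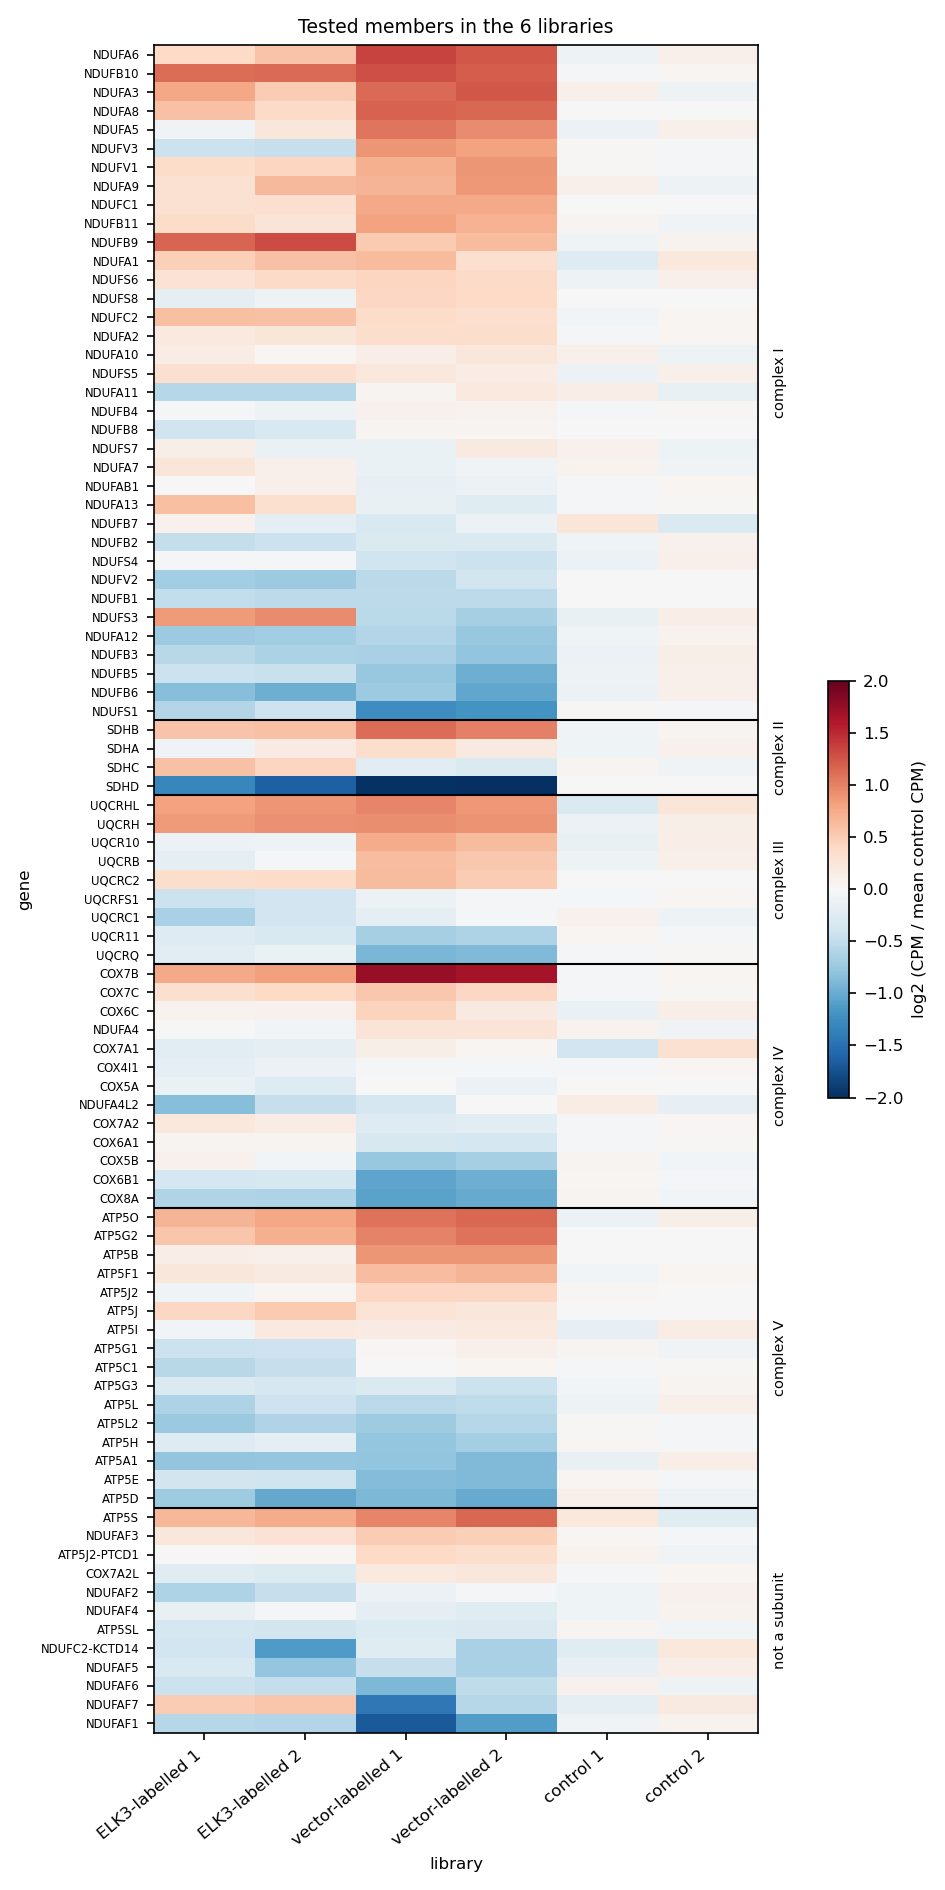
Level of tested members (rows, by complex and sorted by the vector-labelled against control log2 fold change) in the 6 libraries (columns), as log2 of CPM over the mean control CPM, with the colour scale limited to -2 and 2. The vector-labelled columns hold both deep red and deep blue members, such as COX7B at 593.9 and 562.7 CPM and SDHD at 10.3 and 8.40 CPM, and both are paler in the ELK3-labelled columns.

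The 12 members that are not subunits had 4 called higher and 5 lower between vector-labelled and control libraries, 2 higher and 4 lower between ELK3-labelled and vector-labelled libraries, and 3 higher and 6 lower between ELK3-labelled and control libraries. NDUFAF2, the assembly paralog of NDUFA12, was lower in the ELK3-labelled than in the vector-labelled and the control libraries, at -0.46 ± 0.09 and -0.53 ± 0.09 (log2, adjusted p = 8.75e-05 and 1.05e-05). COX7A2L had 90.6 and 88.1 CPM in the ELK3-labelled, 122.7 and 125.7 CPM in the vector-labelled and 104.6 and 109.7 CPM in the control libraries, with the ELK3-labelled pair the lowest. NDUFAF1, an early assembly factor of complex I, had 11.5 and 11.3 CPM in the ELK3-labelled, 5.29 and 7.80 CPM in the vector-labelled and 16.1 and 17.9 CPM in the control libraries. NDUFAF7, a methyltransferase of complex I assembly, had 15.7 and 16.2 CPM in the ELK3-labelled, 4.11 and 7.40 CPM in the vector-labelled and 9.62 and 12.5 CPM in the control libraries. Both were lowest in the vector-labelled pair without overlap. NDUFAF7 had the highest log2 fold change of all members between ELK3-labelled and vector-labelled libraries (1.52 ± 0.24, adjusted p = 1.49e-06). Its change between vector-labelled and control libraries (-0.99 ± 0.27, adjusted p = 0.00149) was lost without vector-labelled replicate 1 (adjusted p = 0.0946), and so was that of NDUFAF1 between ELK3-labelled and vector-labelled libraries (0.83 ± 0.23, adjusted p = 0.00258, against 0.111 without it).

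The transcription factors known for respiratory genes were examined as a list of 10, all tested. Of these, 1 was called higher and 7 lower between vector-labelled and control libraries (median -0.73), 5 higher and 1 lower between ELK3-labelled and vector-labelled libraries (median 0.43), and 1 higher and 5 lower between ELK3-labelled and control libraries (median -0.20). The shares of all genes tested were 37.0% higher and 35.3% lower in the first of these, 30.0% and 29.6% in the next and 31.8% and 30.8% in the last. ESRRA, the estrogen-related receptor alpha, had 385.8 and 406.7 CPM in the ELK3-labelled, 91.4 and 96.5 CPM in the vector-labelled and 655.4 and 621.5 CPM in the control libraries. TFAM, which packages and transcribes mitochondrial DNA, had 170.6 and 187.2 CPM in the ELK3-labelled, 92.0 and 96.5 CPM in the vector-labelled and 244.9 and 281.9 CPM in the control libraries. Both were lowest in the vector-labelled pair with no overlap between groups, by log2 fold changes against the controls of -2.77 ± 0.09 for ESRRA (adjusted p = 1.55e-23) and -1.48 ± 0.09 for TFAM (adjusted p = 9.72e-16). PPARGC1A, the coactivator of ESRRA, was the one called higher there, with 23.2 and 23.6 CPM in the ELK3-labelled, 49.5 and 42.6 CPM in the vector-labelled and 23.0 and 23.2 CPM in the control libraries (1.00 ± 0.14, adjusted p = 1.57e-07). GABPB1, the beta subunit of GABP, had 21.5 and 21.2 CPM in the ELK3-labelled, 26.6 and 22.01 CPM in the vector-labelled and 45.2 and 44.9 CPM in the control libraries, and was lower in both knockdown groups. GABPA, the alpha subunit, went the other way. It had 22.4 and 15.95 CPM in the ELK3-labelled and 13.96 and 14.8 CPM in the vector-labelled libraries. The controls had 10.5 and 10.97 CPM. Against them GABPA was called higher in the ELK3-labelled libraries (0.81 ± 0.20, adjusted p = 0.000777). In the vector-labelled libraries it was not called (0.42 ± 0.22, adjusted p = 0.0827).

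Other lists of the pathway also split by gene. Of 49 assembly factors outside the symbol rule, 14 were called higher and 25 lower between vector-labelled and control libraries (median -0.32), 21 higher and 18 lower between ELK3-labelled and vector-labelled libraries (median 0.16), and 15 higher and 13 lower between ELK3-labelled and control libraries (median -0.11). The shares called were 79.6%, 79.6% and 57.1%, beside 72.3%, 59.6% and 62.6% of all genes tested. In the first comparison 51.0% were lower, beside 35.3% of all genes. COX11, which inserts copper into complex IV, had 15.9 and 22.7 CPM in the ELK3-labelled, 64.5 and 62.6 CPM in the vector-labelled and 16.5 and 13.1 CPM in the control libraries. SCO1, another copper chaperone of complex IV, had 50.1 and 59.2 CPM in the ELK3-labelled, 15.1 and 20.2 CPM in the vector-labelled and 39.9 and 42.4 CPM in the control libraries. The vector-labelled pair was thus the highest for COX11 (2.10 ± 0.16 in log2 against the controls, adjusted p = 1.33e-13) and the lowest for SCO1 (-1.24 ± 0.15, adjusted p = 1.04e-08). Of 13 tested genes of coenzyme Q synthesis, 6 were called higher and 4 lower between vector-labelled and control libraries and 2 higher and 3 lower between ELK3-labelled and vector-labelled libraries. In the ELK3-labelled libraries 4 of them were called higher and 3 lower than in the controls. In these 3 comparisons 76.9%, 38.5% and 53.85% were called, beside 72.3%, 59.6% and 62.6% of all genes tested. PDSS1 and PDSS2 encode the partner subunits of the enzyme that makes the coenzyme Q side chain. PDSS1 had 23.1 and 30.2 CPM in the ELK3-labelled, 8.37 and 6.20 CPM in the vector-labelled and 23.8 and 21.1 CPM in the control libraries. PDSS2 had 23.5 and 25.2 CPM in the ELK3-labelled, 72.0 and 79.6 CPM in the vector-labelled and 15.1 and 15.3 CPM in the control libraries. The partners were opposite in the vector-labelled pair, at -1.60 ± 0.21 for PDSS1 and 2.32 ± 0.14 for PDSS2 (log2 against the controls, adjusted p = 4.04e-08 and 3.05e-16).

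The 11 tested carriers and further subunits, which include cytochrome c (CYCS) and the electron-transfer flavoprotein, had 5 called higher and 6 lower between vector-labelled and control libraries, 3 higher and 6 lower between ELK3-labelled and vector-labelled libraries, and 2 higher and 5 lower between ELK3-labelled and control libraries. All 11 were thus called in the first of these, beside 72.3% of all genes tested. In the next 81.8% were called, beside 59.6% of all genes, and in the last 63.6%, beside 62.6%. CYCS had 200.8 and 199.0 CPM in the ELK3-labelled, 302.6 and 305.0 CPM in the vector-labelled and 213.9 and 230.1 CPM in the control libraries, so the vector-labelled pair was the highest. Of 17 genes of the tricarboxylic acid cycle and pyruvate dehydrogenase, 8 were called higher and 6 lower between vector-labelled and control libraries, 4 higher and 10 lower between ELK3-labelled and vector-labelled libraries (median -0.33), and 7 higher and 6 lower between ELK3-labelled and control libraries. The shares called were 82.35%, 82.35% and 76.5%, beside the same shares of all genes. Between ELK3-labelled and vector-labelled libraries 58.8% were lower, beside 29.6% of all genes tested. These lists, like the members, were chosen with earlier results of the same libraries known, and their medians carry no test.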

How the data were processed

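RNA of 6 libraries was measured, per the labels from 500 ng of total RNA with a Lexogen Quant-Seq kit, which reads transcript ends. The authors deposited 1 table of raw, whole-number counts by gene symbol for each library. The submitters' processing notes name Bowtie2, edgeR and hg19 without versions, and the counter, annotation, filters and use of strand are not given in the sources used here, so overlapping and antisense genes and processed pseudogenes may share reads. The 1561 lines that share 286 symbols were summed, none of them members.

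Low genes were removed by filterByExpr, libraries were scaled by TMM, and edgeR 4.0.16 (R 4.3.3) fitted 1 robust quasi-likelihood model to all 6 libraries, with Benjamini-Hochberg adjustment over 15386 genes. Errors given with ± are standard errors of log2 fold changes. The steps were tested on simulated data in which few genes were changed, as many up as down, and only in the vector-labelled libraries. Far more genes were called in the real libraries, so that test does not cover scaling under such wide changes. Tried as alternatives were limma-voom (limma 3.58.1), DESeq2 1.42.0, other scalings and filters, a replicate block and leaving out each library. Promoters came from RefSeq tables (Python 3.11.15), with the first listed window of each gene used. Members named with values are the most changed of each complex, paralogous pairs and redox or catalytic genes, and the others are named by their calls. The members and lists were chosen with earlier results of these data known. Results on 1 member and 1 further gene are not reported here, though both enter the counts, medians and sums.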

Additional observations from a re-analysis of the deposited data

How the results depend on the processing

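Under 15 alternatives, counts of members called higher or lower stayed within 1.5 times those reported. Between ELK3-labelled and vector-labelled libraries they ran between 20 and 25 higher and between 28 and 42 lower. The ETS counts ran between 7 and 9. This range takes in a further alternative, with the motif in any listed window, which had 11 tested holders and not 9. Of these 11, 8 were called lower between vector-labelled and control libraries. Between ELK3-labelled and vector-labelled libraries 9 of the 11 were called higher. The medians of the members moved, and the cause was not tested. With library totals they were 0.1578 between vector-labelled and control libraries and 0.1419 between ELK3-labelled and control libraries. With no filter they were -0.0109 between vector-labelled and control and -0.0492 between ELK3-labelled and vector-labelled libraries, and with a filter of 10 CPM in 2 libraries 0.1236 and -0.1617. Leaving out a library gave -0.0147 to 0.0488 between vector-labelled and control libraries. With library totals, mean summed CPM was 17615.6 (ELK3-labelled), 18966.3 (vector-labelled) and 15542.1 (control) over all members, 5745.7, 6114.1 and 4502.9 for complex I, 2443.7, 2660.5 and 2104.9 for complex III and 4783.5, 5411.1 and 4739.4 for complex V. It was 422.0 (ELK3-labelled) and 324.9 (control) for complex II and 3584.7 and 3232.3 for complex IV. With DESeq2 size factors the vector-labelled mean was 18338.6 over all members and 5232.5 for complex V.

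Of 4047 values of single genes under the alternatives, 3822 kept direction and call, 173 lost the call, 21 gained it and 31 turned sign. All 31 were of genes not called, and their cause was not tested. With library totals these were COX4I1 at 0.1048, UQCRFS1 at 0.0595 (vector-labelled against control), UQCRH at 0.0017 (ELK3-labelled against vector-labelled), COX4I1 at 0.0174, NDUFA4 at 0.1267 and NDUFS7 at 0.1486 (ELK3-labelled against control). With no filter they were NDUFS7 at -0.0288 (vector-labelled against control) and, between ELK3-labelled and vector-labelled libraries, 0.0235 for NDUFS7 and 0.0345 for UQCRH. With the 10 CPM filter they were COX4I1 at 0.071 and UQCRFS1 at 0.0257 (vector-labelled against control), ATP5A1 at -0.0097 and ATP5G3 at -0.0192 (ELK3-labelled against vector-labelled), and NDUFA4 at 0.0007 and NDUFS7 at 0.0225 (ELK3-labelled against control). Leaving out a library gave, between vector-labelled and control libraries, -0.228 to 0.4357 for COX7A1, -0.0177 to 0.1149 for ATP5G1, -0.1469 to 0.1789 for NDUFS7 and -0.349 to 0.0037 for NDUFA4L2. Between ELK3-labelled and vector-labelled libraries it gave -0.0497 to 0.0147 for UQCRH, -0.0079 to 0.1248 for ATP5G3 and -0.1889 to 0.1306 for NDUFS7. Between ELK3-labelled and control libraries it gave -0.1134 to 0.0383 for NDUFA4, -0.1338 to 0.1187 for NDUFS7, -0.0639 to 0.1643 for SDHA and -0.502 to 0.1625 for COX7A1.

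The labels do not say whether same-numbered libraries belong together, and the main fit did not pair them. Deviations of same-numbered libraries correlated at -0.248 (vector-labelled and control), -0.0210 (ELK3-labelled and vector-labelled) and 0.125 (ELK3-labelled and control) over 7752 genes. These values do not settle whether same-numbered libraries shared a batch. With a replicate block 37 members were called higher and 32 lower between vector-labelled and control libraries, 23 and 35 between ELK3-labelled and vector-labelled libraries, and 31 and 33 between ELK3-labelled and control libraries. With 2 libraries a group, small differences are not resolved.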
